A study of Arabidopsis thaliana with 6 samples.

Results

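The antioxidant enzymes and the glutathione-ascorbate cycle of *Arabidopsis thaliana* shoot apices were followed as 42 genes of the 24340 in the expression table. They were picked by enzyme family and gene identifier, with earlier results of these data known, and encode superoxide dismutases with their copper chaperone, catalases, ascorbate peroxidases (APX), dehydroascorbate reductases (DHAR), monodehydroascorbate reductases (MDAR), glutathione reductases (GR), glutathione peroxidases (GPX), enzymes of ascorbate and glutathione synthesis, thioredoxin reductases, sulfiredoxin and a pair of h-type thioredoxins. Both groups were micro-dissected shoot apices of the *ap1*, *cal* genotype, a double mutant whose inflorescences over-proliferate meristems, so that the same mutations were present in treated and control plants. The SNP group received 1 mM sodium nitroprusside (SNP), a compound that releases nitric oxide (NO), together with 0.025% of the wetting agent Silwet, and the Mock group received Silwet without SNP. Both were sampled after 24 h in 3 biological replicates per group. No group with spent SNP or another NO donor was analysed here, so NO and the other parts of the compound cannot be told apart.

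Plant cells make superoxide and hydrogen peroxide in plastids, peroxisomes, mitochondria and the cytosol. Superoxide dismutases turn superoxide into hydrogen peroxide, which catalases break down in peroxisomes without a reductant. Ascorbate peroxidases use ascorbate for the same purpose, and the oxidised forms of ascorbate are returned by MDARs with NAD(P)H and by DHARs with glutathione, which GRs then reduce with NADPH. Plant GPXs are reduced mainly by thioredoxin, and h-type thioredoxins also remove NO groups from protein cysteines.

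The data were TPM values (transcript counts scaled to the same total in each sample), a level corrected for gene length, so that levels of different genes in 1 sample can be compared. Depth was between 51879530 and 99089586 reads per sample on the listed genes. Tests were run with limma on log2(TPM + 0.5) over 18966 genes whose mean reached 0.5 TPM, and a gene was called higher or lower at a Benjamini-Hochberg adjusted p under 0.05. At that threshold 29.6% of all tested genes were called, 16.6% higher and 13.0% lower, so a call is common in this comparison. With scaling to the 75th percentile the balance turned, with 2798 genes higher and 3183 lower in place of 3152 and 2467. Mock replicate 1 stood apart, with a correlation of 0.977 to both other Mock samples against 0.991 between those, while the SNP samples correlated at 0.989 to 0.993. Its longest genes were also low, with a median log2 deviation of -0.43 against 0.04 to 0.14 in the other samples. The tissue label fitted its markers, as *STM* (105 to 137 TPM), *KNAT1* (74.3 to 92.6 TPM) and *LFY* (66.3 to 81.2 TPM) were present in every sample. Of the 6 meristem markers *UFO* was called higher, by a log2 fold change of 0.68 ± 0.15 (SE, limma adjusted p = 0.0149), a call lost without SNP 1 (limma adjusted p = 0.0654) or SNP 3 (0.0533), and 5 were not called, 1 of them separate and lower in SNP. The summed TPM of the 6 green leaf markers overlapped between groups, at 4999 to 5811 in Mock and 5151 to 6066 in SNP, although *CAB3* and *LHCB2.1* were called lower and 3 of the 6 were separate and lower, and the floral organ markers *AG*, *AP3* and *PI* summed to 14.4 to 19.5 and 5.34 to 13.1 TPM, with *AG* listed at 0 in SNP 2. Of 4 senescence markers *SAG12* was not listed, and the 3 listed, *SAG13*, *SAG20* and *SAG21*, were all called higher. Their summed level was 104.5 to 177 TPM in Mock and 471 to 561 TPM in SNP. The largest part of that increase was from *SAG21*, with means of 21.6 TPM in Mock and 327 TPM in SNP. The part of these markers in the results that follow was not tested. In such bulk samples fewer cells of a type and less RNA per cell cannot be told apart.

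SNP-treated apices had more antioxidant transcript in total, and the increase was concentrated in few genes. The 42 genes summed to 5775, 5347 and 5671 TPM in Mock 1, 2 and 3 and to 8363, 8283 and 8907 TPM in SNP 1, 2 and 3. The groups did not overlap, and the mean was 1.52-fold higher in SNP (two-sided exact permutation p = 0.1, the smallest that 3 against 3 samples allow). *CAT3* and *APX1* together made up 59.5% of that increase. Of the 39 members that passed the filter on low values, 14 were called higher, 1 lower and 24 neither, that is 35.9% higher against 16.6% of all tested genes. The study's criterion asks for a fold of 1.5 or more with an unadjusted p below 0.01. It was applied here to the limma fit, whereas the study's methods name DEGseq and the sample labels name DESeq2. Under it 8 members were higher (20.5%, against 10.5% of all genes) and 1 was lower (against 6.4%), 23.1% of the tested members in all against 16.9%. At a fold of 2 with the adjusted threshold, 7 were higher and 0 lower, where 5.68% and 2.14% of all genes were. In 20 members (51.3%) the samples of both groups did not overlap, against 51.2% of all tested genes, so the share in either direction was that of all genes. The split by direction was uneven. Of the 39 members 18 were separate and higher, where 29.2% of all genes were, and 2 were separate and lower, where 22.0% were. Their median log2 fold change was 0.27, against 0.06 over all tested genes. Without Mock replicate 1, 17 members were called higher and 1 lower. Without SNP replicate 3, 10 were called higher and 0 lower.

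**Figure D1:**
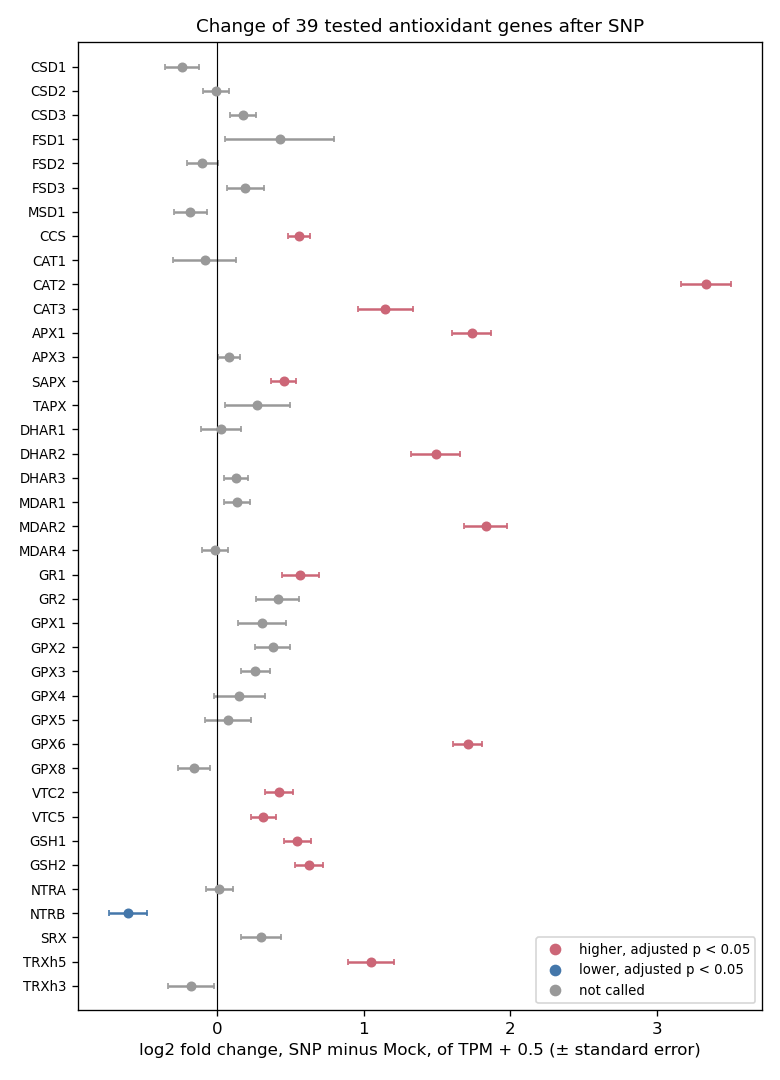
Log2 fold change of SNP against Mock for the 39 tested members, on log2(TPM + 0.5), with bars of 1 standard error from limma and 3 samples per group. *CAT2* lies at 3.34, a group of *MDAR2*, *APX1*, *GPX6* and *DHAR2* between 1.49 and 1.83, and *NTRB* at -0.61 is the 1 member called lower.

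The 4 members that increased at least 3-fold were *CAT2*, *MDAR2*, *APX1* and *GPX6*. The 250 bases before the annotated gene starts of *CAT2*, *MDAR2* and *APX1*, 3 of these 4 members, are printed here. They were read from TAIR10.1 with the RefSeq annotation, 5′ to 3′ on the strand of the gene, and none of the windows overlapped an annotated exon. Capitals mark every match, on either strand, to 1 of 4 short motifs: GTAC, the core bound by the copper regulator SPL7; TGACG, bound by TGA factors and written CGTCA on the other strand; GAANNTTC, a heat shock element; and CACGTG, the G-box.
CAT2 (chr4:16703505-16703754, minus strand): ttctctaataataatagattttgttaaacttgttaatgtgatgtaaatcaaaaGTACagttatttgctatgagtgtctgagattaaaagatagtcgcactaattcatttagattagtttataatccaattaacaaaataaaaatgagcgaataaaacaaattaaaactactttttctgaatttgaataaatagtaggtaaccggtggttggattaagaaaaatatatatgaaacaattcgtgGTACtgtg
MDAR2 (chr5:924729-924978, minus strand): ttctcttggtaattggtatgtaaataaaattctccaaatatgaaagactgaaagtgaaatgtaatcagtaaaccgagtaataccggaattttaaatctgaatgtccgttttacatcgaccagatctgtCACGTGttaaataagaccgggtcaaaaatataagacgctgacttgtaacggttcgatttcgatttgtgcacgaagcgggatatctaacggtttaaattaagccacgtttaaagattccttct
APX1 (chr1:2437031-2437280, plus strand): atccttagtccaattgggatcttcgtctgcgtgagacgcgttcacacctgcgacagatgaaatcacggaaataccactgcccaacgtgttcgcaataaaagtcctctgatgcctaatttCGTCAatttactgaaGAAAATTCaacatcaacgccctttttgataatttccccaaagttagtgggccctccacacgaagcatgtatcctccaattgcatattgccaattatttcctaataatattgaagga
No motif was present in all 3 windows. *CAT2* held GTAC beginning 197 and 8 bases before the gene start and none of the other motifs. *APX1* held TGACG on the other strand at 131 bases and GAANNTTC at 116 bases, without overlap of the matches. *MDAR2* held CACGTG at 122 bases.

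TGACG and GTAC were about as frequent in front of the members called higher as in front of all genes. TGACG was found in 3 of 14 windows of members called higher (21.4%) and in 9 of 25 windows of the other tested members (36.0%), against 19.2% of the 18863 windows of tested genes. GTAC was found in 5 of 14 (35.7%) and 9 of 25 (36.0%) against 34.9%, and CACGTG in 2 of 14 (14.3%) and 3 of 25 (12.0%) against 7.35%. GAANNTTC was found in 3 of 14 (21.4%), those of *APX1*, *VTC2* and *GSH2*, against 9.31% of all windows and 0 of 25 windows of the other tested members. The 3 members below the filter are outside these counts, and the window of 1 of them, *APX2*, also held GAANNTTC, at 61 bases. These are descriptions of letters in a window and were not tested.

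The largest fold change was that of a catalase, while in TPM *APX1* increased most. *CAT2* (AT4G35090), the peroxisomal catalase best known from photosynthetic leaves, was at 16.5, 22.7 and 20.4 TPM in Mock 1, 2 and 3 and at 165, 239 and 215 TPM in SNP 1, 2 and 3. Every SNP sample was thus far above every Mock sample. The mean rose from 19.9 ± 3.12 to 206 ± 37.9 TPM (SD, n = 3 each), a log2 fold change of 3.34 ± 0.17 (SE, limma adjusted p = 5.79e-05), or 10.1-fold on the log2(TPM + 0.5) scale. Leaving out any 1 sample moved the log2 fold change only between 3.21 and 3.49. Of the 6 green leaf markers 0 were called higher and 2 lower, and of the 3 senescence markers 3 were called higher; their part in this result was not tested.

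*CAT3* (AT1G20620), the most abundant catalase of these apices, had 454, 749 and 685 TPM in the Mock samples and 1342, 1428 and 1316 TPM in the SNP samples. Mock 1 was the lowest of the 6 and the groups did not overlap. *CAT3* increased by a log2 fold change of 1.15 ± 0.19 (SE, limma adjusted p = 0.00549), and without Mock 1 the log2 fold change was 0.93. *CAT1* (AT1G20630), whose product is known from seeds and pollen, overlapped between groups, at 24.5, 38.9 and 38.0 TPM in Mock and 27.7, 38.8 and 28.0 TPM in SNP (log2 fold change -0.09, limma adjusted p = 0.786). The 3 genes summed to 683 TPM in Mock and 1599.7 TPM in SNP on average. Within that sum the share of *CAT2* went from 2.96% ± 0.326 to 12.8% ± 1.84 (SD, n = 3 each) and that of *CAT3* from 92.1% ± 0.345 to 85.2% ± 1.99 (SD, n = 3 each). Neither share overlapped between groups (exact permutation p = 0.1 for each, the smallest possible), and *CAT3* remained the main catalase transcript in all 6 samples.

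Of the ascorbate peroxidases, the cytosolic *APX1* (AT1G07890) had the largest change. Its level was 455, 392 and 432 TPM in Mock and 1439.5, 1213 and 1637 TPM in SNP. The lowest SNP sample was well above the highest Mock sample. The mean rose from 426 ± 32.1 to 1429.9 ± 212 TPM (SD, n = 3 each), a log2 fold change of 1.74 ± 0.13 (SE, limma adjusted p = 0.000269). *SAPX* (AT4G08390), the soluble peroxidase of the plastid stroma, also rose, from 54.9, 56.8 and 61.0 TPM to 79.2, 73.8 and 83.9 TPM, a log2 fold change of 0.45 ± 0.09 (SE, limma adjusted p = 0.00925), and this call was lost without SNP 3 (limma adjusted p = 0.0563).

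The thylakoid form *TAPX* (AT1G77490) ranged from 16.1 to 31.6 TPM with overlapping groups and was not called (log2 fold change 0.27). The peroxisomal *APX3* (AT4G35000) lay between 166 and 186 TPM in all 6 samples, with a log2 fold change of 0.08 (limma adjusted p = 0.455) that became -0.01 with scaling to the 75th percentile. *APX2* (AT3G09640), a heat- and light-inducible cytosolic form, was close to absent in every sample, with 0 to 14 reads. Its 0 reads in Mock 2 allow up to 3 reads by counting error alone. The share of *APX1* in the summed level of the 5 genes went from 62.9% ± 2.13 to 83.2% ± 2.31 (SD, n = 3 each), and that of *APX3* from 24.9% ± 0.748 to 10.5% ± 1.71 (SD, n = 3 each) (exact permutation p = 0.1 for each, the smallest possible).

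**Figure D2:**
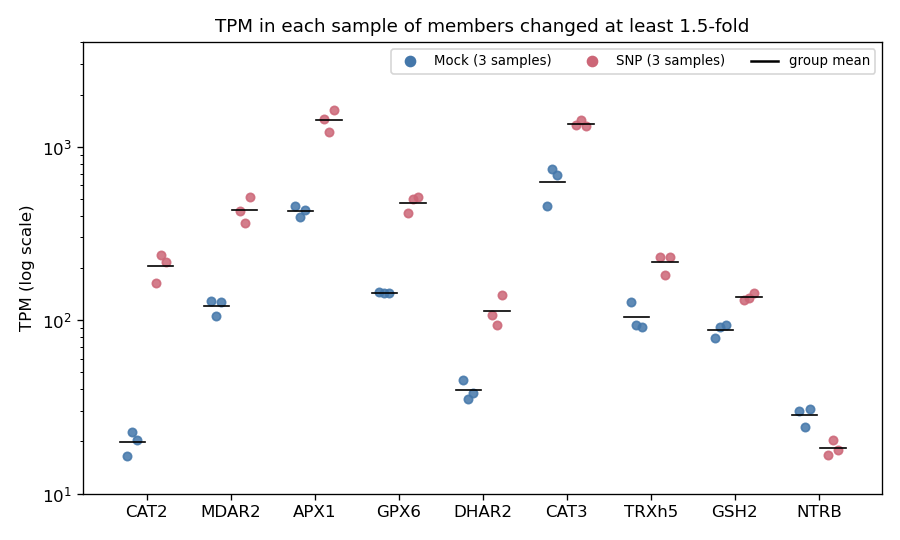
TPM on a log scale in each of 3 Mock (blue) and 3 SNP (red) samples for the 9 members past the study's criterion in the limma fit, ordered by log2 fold change, with black bars for the group means. In all 9 the groups are separate, from *CAT2* at 16.5 to 22.7 TPM in Mock and 165 to 239 TPM in SNP to *NTRB*, which is lower in SNP.

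The reductases that return ascorbate each had 1 strongly changed cytosolic member. *MDAR2* (AT5G03630) was at 129, 106 and 127 TPM in Mock and at 424, 363 and 512 TPM in SNP. All SNP samples exceeded all Mock samples, and SNP 3 was the highest, as it was for *APX1* and *DHAR2*. The increase was a log2 fold change of 1.83 ± 0.15 (SE, limma adjusted p = 0.000325). *DHAR2* (AT1G75270) rose from 45.4, 35.2 and 38.1 TPM to 107, 93.4 and 139 TPM, a log2 fold change of 1.49 ± 0.17 (SE, limma adjusted p = 0.00121).

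Their tested paralogs were not called. *MDAR1* (AT3G52880), assigned to peroxisomes and the most abundant MDAR transcript of the Mock samples, was at 204, 172 and 181 TPM in Mock and 201, 212 and 197 TPM in SNP, with overlap (log2 fold change 0.13 ± 0.09). *MDAR4* (AT3G27820) of the peroxisomal membrane stayed between 45.1 and 51.2 TPM. *MDAR3* (AT3G09940) had only 3 to 30 reads per sample and was below the filter. The order within the family differed between groups: the share of *MDAR2* in the summed MDAR level went from 34.0% ± 1.54 to 63.0% ± 4.94 (SD, n = 3 each) and that of *MDAR1* from 52.4% ± 1.38 to 30.0% ± 3.89 (SD, n = 3 each). *MDAR1* was thus the leading form in each Mock sample and *MDAR2* in each SNP sample.

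*DHAR1* (AT1G19570) was the most abundant DHAR transcript, with 805, 602 and 773 TPM in Mock and 686, 706 and 814 TPM in SNP. These values overlapped, the log2 fold change was 0.02 ± 0.14, and it was -0.03 and -0.07 with median-of-ratios and 75th percentile scaling. Of the 75-base stretches of *DHAR1*, 8.8% also occur in *DHAR4*, which is not listed in the table, so reads of the pair may not be separable there. The plastid *DHAR3* (AT5G16710) ranged from 76.4 to 90.8 TPM with a log2 fold change of 0.12. Because *DHAR1* was far above the others, the summed DHAR level was 846 ± 115 TPM in Mock and 935 ± 90.9 TPM in SNP (SD, n = 3 each; exact permutation p = 0.6), although the share of *DHAR2* went from 4.69% ± 0.384 to 12.0% ± 1.45 (SD, n = 3 each).

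**Figure D3:**
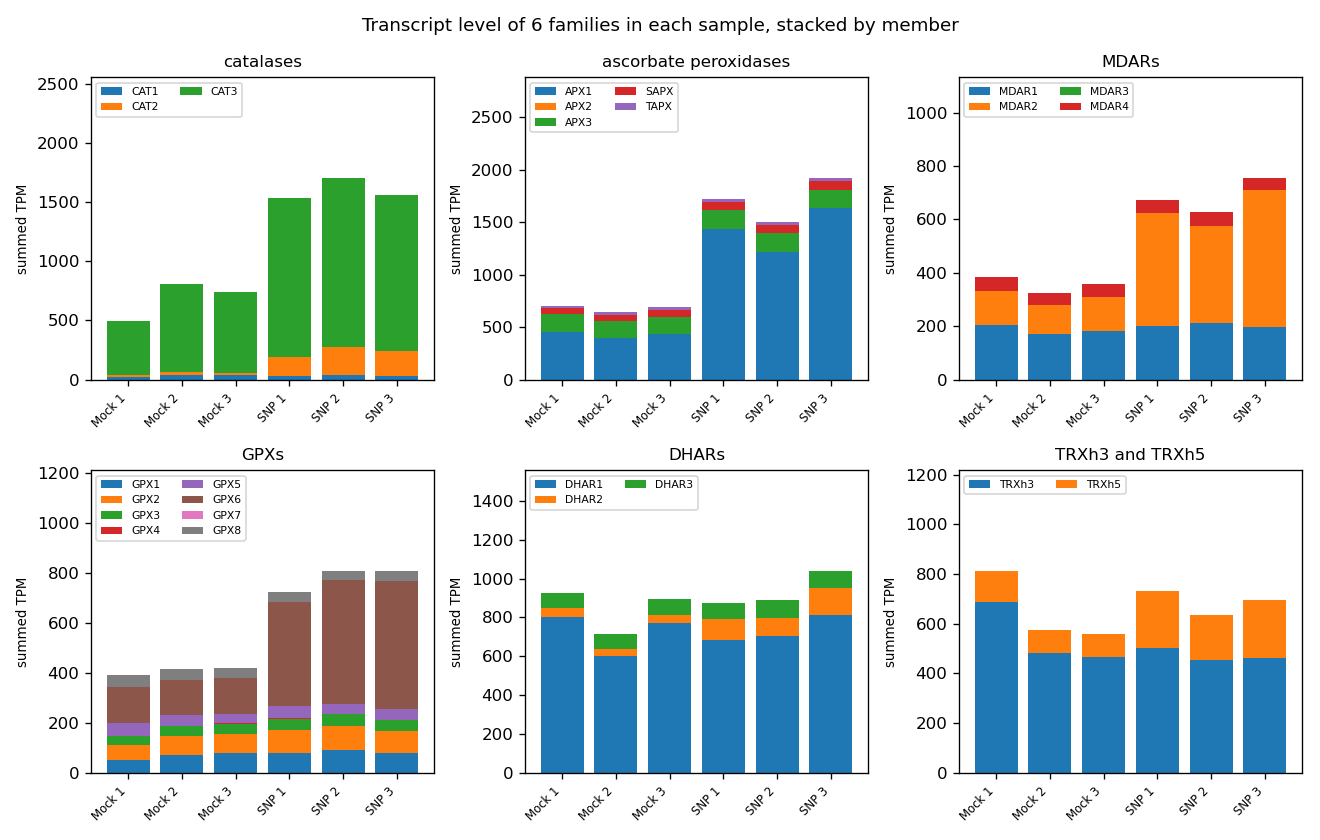
Summed TPM in each Mock and SNP sample for the catalases, ascorbate peroxidases, MDARs, GPXs, DHARs and the thioredoxins *TRXh3* and *TRXh5*, with each bar divided by member. The sums of the first 4 families were 1.91- to 2.53-fold higher in SNP, whereas the sums of the DHARs and thioredoxins overlapped between groups while *DHAR2* and *TRXh5* took a larger share.

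Both glutathione reductases were separated between groups, but 1 was called. *GR1* (AT3G24170), the cytosolic and peroxisomal form, was at 39.6, 47.2 and 51.3 TPM in Mock and 62.5, 76.6 and 65.4 TPM in SNP, a log2 fold change of 0.56 ± 0.13 (SE, limma adjusted p = 0.0165). This call was lost without SNP 2 (limma adjusted p = 0.0589) and without SNP 3 (0.0561). *GR2* (AT3G54660), the form of plastids and mitochondria, was at 50.9, 71.7 and 74.3 TPM and 84.8, 88.7 and 85.2 TPM, with a log2 fold change of 0.41 ± 0.15 (limma adjusted p = 0.0775). Mock 1 was its lowest value, and without Mock 1 the log2 fold change was 0.24 with a limma adjusted p of 0.0196. *GR2* was also called with median-of-ratios scaling (limma adjusted p = 0.0497) and with each sample's trend along gene length removed (0.0168). The share of *GR1* in the pair was 41.4% in Mock and 44.1% in SNP (exact permutation p = 0.3).

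Among the 7 tested GPX genes, *GPX6* (AT4G11600), assigned to mitochondria and the cytosol, was the 1 member called. It was nearly constant in Mock, at 145, 143 and 144 TPM, and had 415, 497 and 511 TPM in SNP. The mean rose from 144 ± 1.20 to 474 ± 51.9 TPM (SD, n = 3 each), a log2 fold change of 1.71 ± 0.10 (SE, limma adjusted p = 9.83e-05). *GPX2* (AT2G31570) was also separated, at 59.3, 75.4 and 79.0 TPM and 92.6, 94.3 and 89.0 TPM, but had a limma adjusted p of 0.0525 (0.0184 without Mock 1, 0.0489 without Mock 3). It was called in 5 of 16 alternative fits. The others were median-of-ratios scaling (limma adjusted p = 0.0341), 75th percentile scaling (0.0467) and removal of each sample's trend along gene length (0.0387). *GPX3* (AT2G43350), a sensor of hydrogen peroxide in guard cells, was separated as well, with a log2 fold change of 0.26 (limma adjusted p = 0.0889, 0.0499 with that trend removed). The groups overlapped for the plastid *GPX1* (51.7 to 91.9 TPM), *GPX4* (0.468 to 0.881 TPM), *GPX5* (35.7 to 52.9 TPM) and *GPX8* (35.2 to 48.7 TPM), with log2 fold changes between -0.16 and 0.30. *GPX4* had only 24 to 32 reads per sample.

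*GPX7* (AT4G31870), the second plastid form, was below the filter with 8 to 19 reads per sample, at 0.117, 0.109 and 0.14 TPM in Mock and 0.296, 0.292 and 0.22 TPM in SNP. In the fit without a filter it was called higher (log2 fold change 0.31, limma adjusted p = 0.0145), at these low read numbers. Part of *GPX7* overlaps a gene on the opposite strand (39.6% of its 75-base stretches), and whether counting used the strand is not given in the sources used here. The summed GPX level was 408 ± 13.7 TPM in Mock and 779 ± 47.4 TPM in SNP, and the share of *GPX6* in it went from 35.3% ± 1.43 to 60.7% ± 3.14 (SD, n = 3 each) without overlap.

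Of the superoxide dismutases 0 of 7 were called with limma, where 29.6% of all tested genes were. The difference between so few genes and that share was not tested. At an unadjusted p under 0.05 the count was also 0 of 7, a threshold whose share over all genes was not counted. *CSD1* (AT1G08830), the cytosolic copper/zinc form and the most abundant, was at 556, 423 and 459 TPM in Mock and 414, 396 and 395 TPM in SNP. All SNP values were below all Mock values, by a log2 fold change of -0.24 ± 0.12 (limma adjusted p = 0.156). The plastid *CSD2* (AT2G28190) was at 438, 374 and 411 TPM in Mock and 399.7, 398 and 413 TPM in SNP, with a log2 fold change of -0.01 ± 0.09.

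Less abundant in both groups were the peroxisomal *CSD3* (AT5G18100, 48.5 to 59.9 TPM) and the plastid iron forms *FSD2* (AT5G51100, 39.2 to 50.7 TPM) and *FSD3* (AT5G23310, 56.1 to 79.2 TPM), none of them called. *FSD1* (AT4G25100), the iron form that copper supply represses, varied within groups, at 13.8, 14.1 and 25.5 TPM and 13.3, 33.3 and 27.6 TPM. The mitochondrial manganese form *MSD1* (AT3G10920) ranged from 182 to 248 TPM with a log2 fold change of -0.18. The 7 dismutases summed to 1286 ± 119 TPM in Mock and 1196 ± 11.5 TPM in SNP (SD, n = 3 each; exact permutation p = 0.4).

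*CCS* (AT1G12520), the chaperone that loads copper into these enzymes, was called higher. It was at 74.1, 80.0 and 79.0 TPM in Mock and 117, 110.4 and 116 TPM in SNP, a log2 fold change of 0.55 ± 0.08 (SE, limma adjusted p = 0.00263), and was called under all 16 alternative fits. *CSD1*, *CSD2* and *CCS* are known as targets of the microRNA miR398, so its mature sequence (seed, bases 2 to 8, in capitals) and the best ungapped complementary stretch of each transcript are shown, read from TAIR10.1 with the RefSeq annotation. Capitals in the stretches mark bases that can form a Watson-Crick pair with miR398b-3p.
miR398b-3p (chr5:4691107-4691127, plus strand): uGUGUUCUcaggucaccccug
CSD1 (chr1:2827177-2827685, plus strand, 5′ UTR, across an intron): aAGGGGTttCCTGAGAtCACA
CSD2 (chr2:12015572-12015592, plus strand, coding sequence): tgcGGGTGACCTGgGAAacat
CCS (chr1:4267521-4267541, minus strand, coding sequence): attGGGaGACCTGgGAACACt
The stretch of *CSD1* had 17 paired bases, that of *CCS* 15 and that of *CSD2* 13. Without bulges the stretches differed in rarity, by a score of 1 per mismatch and 0.5 per G-U pair. A score as low or lower was found in 9 of 31342 genes for *CSD1*, in 491 for *CCS* and in 3822 for *CSD2*. The stretch of *CSD2* was thus no rarity, and *FSD1*, which is not named as a target, had 14 paired bases at the same score. A bulged alignment was not scored, which lowers the count where a site holds one. The microRNA itself was not analysed here, and of the transcripts with these stretches *CCS* was called higher and *CSD1* and *CSD2* were not called.

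Other copper-handling genes gave 2 calls among 7 tested (28.6%, against 29.6% of all tested genes), both higher. The copper importer *COPT1* rose from 25.0, 27.4 and 27.0 TPM to 43.5, 40.4 and 44.8 TPM, a log2 fold change of 0.69 ± 0.09 (SE, limma adjusted p = 0.00195). The copper chaperone *CCH* rose by a log2 fold change of 0.57 ± 0.14 (SE, limma adjusted p = 0.021), a call lost without Mock 2, SNP 2 or SNP 3 (limma adjusted p of 0.0569, 0.0752 and 0.0767). *SPL7*, the copper-responsive regulator, was at 26.2 to 41.1 TPM with overlapping groups.

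The 4 members that make the reductants rose by smaller log2 fold changes, between 0.31 and 0.63. *GSH2* (AT5G27380), glutathione synthetase, was at 79.2, 91.7 and 93.3 TPM in Mock and 131, 134 and 143 TPM in SNP, a log2 fold change of 0.63 ± 0.09 (SE, limma adjusted p = 0.00381). *GSH1* (AT4G23100), glutamate-cysteine ligase, which controls the pace of glutathione synthesis, was at 98.6, 88.8 and 95.0 TPM and 127, 138 and 149 TPM, a log2 fold change of 0.55 ± 0.09 (SE, limma adjusted p = 0.00549). With each sample's trend along gene length removed the limma adjusted p of *GSH1* was 0.051.

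*VTC2* (AT4G26850) and *VTC5* (AT5G55120) encode GDP-L-galactose phosphorylase, the committed step to ascorbate. *VTC2* was at 86.4, 105 and 98.3 TPM in Mock and 134, 131 and 123 TPM in SNP, a log2 fold change of 0.42 ± 0.10 (SE, limma adjusted p = 0.0175), and lost its call without any 1 of the SNP samples (limma adjusted p of 0.0791, 0.0617 and 0.0554 without SNP 1, 2 and 3). *VTC5* was at 109, 100 and 107 TPM and 142, 129 and 123 TPM, a log2 fold change of 0.31 ± 0.09 (SE, limma adjusted p = 0.033). It was called in 6 of 16 alternative fits, with log2 fold changes between 0.22 and 0.36 over all of them. It was not called without Mock 2, Mock 3 or any SNP sample (limma adjusted p of 0.0708 to 0.143). The share of *VTC2* was 47.8% of the sum in Mock and 49.7% in SNP (exact permutation p = 0.6).

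The thiol branch moved in both directions. *TRXh5* (AT1G45145), a thioredoxin known to reduce nitrosylated proteins, was at 127, 93.7 and 91.9 TPM in Mock and 232, 183 and 231 TPM in SNP. The groups were separate, with a log2 fold change of 1.05 ± 0.16 (SE, limma adjusted p = 0.00387). *TRXh3* (AT5G42980), its abundant paralog, was at 685, 481 and 466 TPM and 501, 453 and 463 TPM, where Mock 1 was the highest and the groups overlapped (log2 fold change -0.18 ± 0.16, -0.0043 without Mock 1). The share of *TRXh5* in the pair went from 16.1% ± 0.449 to 31.2% ± 2.29 (SD, n = 3 each), while the summed level of the pair was 648 TPM and 688 TPM (exact permutation p = 0.8). Of the 75-base stretches of *TRXh3*, 17.8% lie opposite another gene.

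*NTRB* (AT4G35460), 1 of the 2 NADPH-thioredoxin reductases that reduce h-type thioredoxins, was the 1 member called lower. It was at 29.8, 24.1 and 30.9 TPM in Mock and 16.7, 20.4 and 17.9 TPM in SNP, with a log2 fold change of -0.61 ± 0.13 (SE, limma adjusted p = 0.0136). The call was lost without SNP 1 (limma adjusted p = 0.0613) and without SNP 3 (0.0606). Its partner *NTRA* (AT2G17420) was at 69.8, 73.5 and 84.1 TPM and 74.2, 77.1 and 77.2 TPM with a log2 fold change of 0.01 ± 0.09, and the share of *NTRB* in the pair went from 27.2% ± 2.62 to 19.3% ± 1.35 (SD, n = 3 each). *SRX* (AT1G31170), sulfiredoxin, which repairs over-oxidised peroxiredoxins, was at 22.1, 16.9 and 15.8 TPM and 23.4, 21.3 and 22.2 TPM. It was not called (limma adjusted p = 0.15), while without Mock 1, its highest Mock value, the log2 fold change was 0.44 with a limma adjusted p of 0.00595.

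Members were also grouped by the main compartment of their products, assigned as background. The counts depend on this assignment. *GR1*, also peroxisomal, was counted as cytosolic, and *GR2*, also mitochondrial, as plastid. *GPX6*, assigned to mitochondria and the cytosol, was counted under several or other compartments, as were *GPX2*, *GPX8*, *NTRA* and *NTRB*. Of the 10 tested members with a cytosolic product, 7 were called higher and 0 lower, with a median log2 fold change of 0.49, where 16.6% of all tested genes were called higher. Of the 11 with a plastid product 2 (18.2%) were called higher, *GSH1* and *SAPX*, with a median of 0.30, a share near that of all genes. Of 7 peroxisomal members 2 were called higher, *CAT2* and *CAT3*, with a median of 0.13, and the 1 purely mitochondrial member, *MSD1*, was not called. Of the 10 with several or other compartments 3 were higher and 1 lower, with a median of 0.20. The difference between compartments was not tested.

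**Figure D4:**
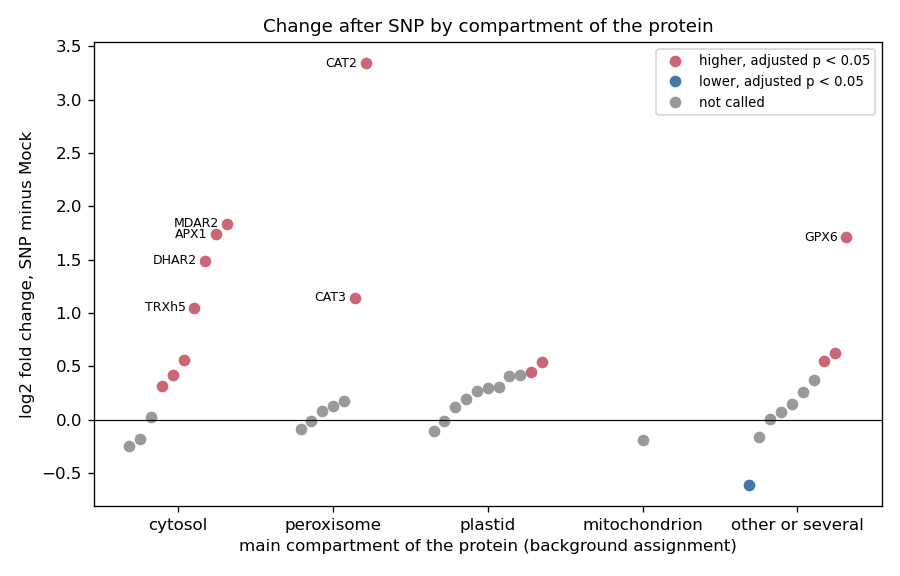
Log2 fold change of SNP against Mock for each tested member, placed by the main compartment of its product, with red for called higher, blue for called lower and grey for not called. The cytosolic column holds 7 of 10 called higher, the plastid column 2 of 11, and the peroxisomal column is split between *CAT2* and *CAT3* at 3.34 and 1.15 and 5 members below 0.2.

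Genes of the same pathways outside the 42 were called about as often as all genes. In 5 lists with 32 tested genes, 6 were called higher (18.8%, against 16.6%) and 4 lower (12.5%, against 13.0%), 31.2% in all against 29.6%, and their median log2 fold change was 0.11. Among 4 further tested genes of the enzyme families *APX6* was called, by a log2 fold change of 0.54 ± 0.10 (SE, limma adjusted p = 0.00822). Among 8 tested genes of ascorbate synthesis, *VTC4*, a phosphatase that forms L-galactose, fell by 0.44 ± 0.09 on the log2 scale (SE, limma adjusted p = 0.0115, 0.058 without SNP 1 and 0.0546 without SNP 3). The phosphomannose isomerase *PMI2* rose at a low level, from 0.249, 0.266 and 0.341 TPM to 0.926, 2.06 and 0.843 TPM, a log2 fold change of 1.12 ± 0.26 (SE, limma adjusted p = 0.0197), lost without Mock 2 (0.0532) or Mock 3 (0.0503).

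Glutathione turnover gave the largest change in these lists with a level above 1 TPM in every sample. *CLT3*, a plastid envelope transporter of glutathione and its precursor, was at 3.66, 4.59 and 3.82 TPM in Mock and 19.8, 23.1 and 22.2 TPM in SNP. The groups were widely separate, with a log2 fold change of 2.30 ± 0.12 (SE, limma adjusted p = 7.09e-05). *GGCT2;1*, which degrades glutathione, fell from 18.1, 7.0 and 18.9 TPM to 2.47, 3.03 and 5.20 TPM, a log2 fold change of -1.84 ± 0.41 (SE, limma adjusted p = 0.0163), while *GGT1*, an extracellular transpeptidase, rose by a log2 fold change of 0.55 ± 0.14 (SE, limma adjusted p = 0.0233). The first of these was not called without Mock 3, SNP 1 or SNP 2 (limma adjusted p of 0.0559, 0.0604 and 0.0578), and the other was not called without any 1 of the SNP samples (0.068 to 0.0811). Of 8 tested genes in that list 3 were called higher and 1 lower.

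Peroxiredoxins gave 0 calls higher and 1 lower among 6 tested, the plastid *PRXIIE* (log2 fold change -0.35 ± 0.11, limma adjusted p = 0.0445), a call lost without Mock 3 or any SNP sample (0.0976 to 0.136). Of the further thioredoxins, *TRXh8* was at 0.125, 0.104 and 0.107 TPM in Mock and at the uneven values of 3.78, 1.25 and 8.16 TPM in SNP, a log2 fold change of 2.72 ± 0.52 (SE, limma adjusted p = 0.00916). Only 4, 4 and 5 reads of *TRXh8* were present in Mock 1, 2 and 3. Over the alternative fits its log2 fold change lay between 2.055 and 4.05. *TRXh1* fell by 0.52 ± 0.13 on the log2 scale (SE, limma adjusted p = 0.0266), which was not called without any 1 of the SNP samples (0.0659 to 0.105).

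Of 5 regulators tied to these enzymes, a list chosen with earlier results known, 3 were called higher (60%, against 16.6% of all tested genes). *ZAT12*, a zinc finger factor of the oxidative stress response, rose from 2.39, 2.32 and 4.49 TPM to 39.8, 25.6 and 34.6 TPM, a log2 fold change of 3.27 ± 0.26 (SE, limma adjusted p = 0.000332). *OXI1*, a kinase activated by hydrogen peroxide, rose from 0.328, 0.408 and 0.438 TPM to 7.63, 15.9 and 6.43 TPM, a log2 fold change of 3.45 ± 0.31 (SE, limma adjusted p = 0.00053). *ZAT10* was called (log2 fold change 1.56 ± 0.46, limma adjusted p = 0.0421) but was not with 5 of the 6 samples left out in turn (0.0515 to 0.129). The heat shock factor *HSFA2*, an activator of *APX2*, was at 5.19, 2.73 and 2.46 TPM and 3.78, 2.29 and 5.57 TPM with overlap, and *NPR1*, a substrate of *TRXh5*, was separate but not called (log2 fold change 0.24, limma adjusted p = 0.107).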

How the data were processed

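RNA-seq of 3 Mock and 3 SNP samples was analysed, grouped by the treatment in the sample labels, with replicate numbers from the titles. Per the labels and the study's methods, poly(A) RNA was sequenced from strand-specific libraries and aligned to TAIR10 with STAR. The authors deposited TPM values of 24340 genes. The counting tool, gene lengths and filter are not given in the sources used here. The authors' own fold changes, p-values and adjusted p-values, also in the table, were not used.

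TPM times merged exon length in TAIR10.1 gave whole multiples of 1 step per sample, within 0.05, for 99.4% of values, from which reads per sample and gene were taken. If read pairs were counted, these are pairs. Counting limits cover counting error only.

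Genes whose mean reached 0.5 TPM were tested with limma 3.58.1 (R 4.3.3; lmFit, eBayes with trend) on log2(TPM + 0.5), which understates changes of low genes, with Benjamini-Hochberg adjustment over all 18966, and the step was tested on simulated data. Shares and sums used the two-sided exact permutation test. Python 3.11.15, pandas 2.3.3, scipy 1.17.1 and matplotlib 3.10.9 were used. Members and lists were chosen with earlier results of these data known. Values per sample were given for the 5 highest and lowest changes among called members, for folds of at least 1.5 and for the most abundant member of each family, and of other lists at most 3 called genes by size of change. Further member values and *SPL7*, *HSFA2* and *NPR1* were given by choice after the values were seen, and so were the markers printed. The values of 2 genes of the meristem marker list and the upstream window of *GPX6* are counted but not reported here. Alternatives were the pseudocount (0.1 or 1), filter (none or a mean of 1 TPM), scaling (median-of-ratios or 75th percentile), eBayes settings, a replicate block, leaving out each sample, removal of the trend along gene length (lowess span 0.3), and fold criteria of 1.5 and 2.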

Additional observations from a re-analysis of the deposited data

How the results depend on the processing

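Of 623 pairs of a tested member and an alternative fit, 575 kept direction and side of the threshold, 19 lost a call, 10 gained one and 19 changed sign. The causes of the shifts were not tested.

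Under the study's criterion, applied to the limma fit, 3205 genes were called, 1991 higher and 1214 lower, with 9 members (8 higher) and, of the other pathway genes, 3 higher and 1 lower. At a fold of 2 with an adjusted p under 0.05, 1483 genes were called, 1078 higher and 405 lower, with 7 members (7 higher, 0 lower) and 3 higher and 1 lower of the other pathway genes. Leaving out 1 sample gave 2883 to 7924 genes, 1753 to 3920 higher and 1130 to 4004 lower, with the highest counts without Mock 1. Members called were then 10 to 18, 10 to 17 higher and 0 to 1 lower, and other pathway genes 4 to 8 higher and 0 to 5 lower. Higher genes were 62.1% of those past the study's criterion as deposited and 51.1% with 75th percentile scaling. At an adjusted p under 0.05 the shares were 56.1% and 46.8%, so lower calls were then more frequent (2798 higher, 3183 lower), and the median log2 fold change of all genes moved from 0.06 to -0.03.

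Signs changed only in members not called in any fit. With median-of-ratios scaling *DHAR1* was at -0.031 and *NTRA* at -0.045. With 75th percentile scaling *APX3* was at -0.012, *DHAR1* at -0.067, *GPX5* at -0.018 and *NTRA* at -0.080. With the length trend removed *CSD2* was at 0.033 and *NTRA* at -0.052. Leaving out 1 sample gave ranges of -0.072 to 0.043 for *CSD2*, -0.301 to 0.028 for *CAT1*, -0.106 to 0.104 for *DHAR1*, -0.072 to 0.024 for *MDAR4*, -0.057 to 0.222 for *GPX5* and -0.046 to 0.087 for *NTRA*.

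Equal replicate numbers are not stated to share plants or a day, and their deviations from the group means correlated at 0.304, -0.0017 and -0.091, so the numbers were not taken as pairs. With a replicate block in the fit, 5490 genes and 14 members were called, and *VTC5* was the member lost (limma adjusted p = 0.0501). Low read numbers limited *APX2*, *MDAR3* and *GPX7*, which had at most 30 reads per sample. They also limited *GPX4*, which was tested with 24 to 32 reads per sample.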
